A study of Mus musculus with 12 samples.

Results

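The genes of the cytosolic ribosomal proteins were followed across 4 groups of macrophages. Members were the rows of the count table with a symbol made of Rpl or Rps and a number, with an optional closing a, x, y or l, together with Rplp0, Rplp1, Rplp2 and Rpsa. Pseudogene rows and the S6 kinases were left out, and a total of at least 100 counts over the 12 libraries was required. Of 84 rows of this form in a table of 24421, 81 were members, 48 of the large subunit and 33 of the small. The 3 rows below the minimum were Rpl10l with 0 counts, Rpl3l with 7 and Rpl39l with 14. All 81 members passed the filter on low counts, which left 11468 genes for testing.

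The source of total RNA was C57BL/6 mice, whose marrow had been cultured for 5 days in M-CSF (100 ng/mL, medium changed on day 3) to give bone marrow-derived macrophages (BMDMs). For 4 h the cells received 5.0 µM I-BET151 (iBET), which blocks the bromodomains of the BET proteins, or the solvent DMSO (5% by the labels), and with it ovalbumin (Ova) or ovalbumin bound by IgG in an immune complex (IC). Each of the 4 groups, named by drug and stimulus (DMSO or iBET, Ova or IC), held 1 library from each of mice A, B and C. Drug and stimulus were simultaneous by the labels, but in the study's text the drug came first, so their order is uncertain. The comparisons asked what the inhibitor changed under either stimulus, what IC changed with and without it, and whether the IC response differed between the drug arms. The 6 macrophage markers (Adgre1, Csf1r, Cd68, Itgam, Mrc1 and Mertk) summed to between 3720 and 4720 per 1000000 counts outside the rRNA row Rn45s, whereas the markers of T cells, B cells, dendritic cells and fibroblasts summed to at most 4.91, those of neutrophils to between 6.22 and 41.8, and those of erythroid and mast cells were at 0.

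The proteins of both subunits assemble with ribosomal RNA in the nucleolus. They are needed in near-equal numbers, and their mRNAs are among the most abundant of a cell. Most of these mRNAs begin with a C followed by a run of pyrimidines, the 5′ terminal oligopyrimidine (TOP) motif, through which mTORC1 and LARP1 set their translation. Ribosomal proteins left outside ribosomes have roles of their own, such as the binding of MDM2 by RPL5 and RPL11.

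RefSeq windows around the start site (build GRCm38.p6) were found for 60 of the 81 members, with 71 promoters in all. A run of 8 or more C or T on the transcript strand, searched from 60 bases before to 50 bases after the annotated start, was present in 80.3% of the member promoters and in 38.6% of the 32851 promoters in the table. Over the full 300 bases and on both strands, CGGAAG, the core of the site of ETS factors, was found in 62% of the member promoters and 16.9% of all, and TATAAA in 9.86% and 13.6%. The windows below are shown for 4 members that passed the test with iBET and for 4 members that were far from the rest in the libraries described next. Each has 30 bases, 5′ to 3′ on the transcript strand, with the longest C or T run in capitals.
Rps2 (chr17:24720083-24720112, plus strand): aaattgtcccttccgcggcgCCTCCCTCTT
Rpl10 (chrX:74270836-74270865, plus strand): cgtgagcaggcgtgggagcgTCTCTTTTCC
Rplp0 (chr5:115559466-115559495, plus strand): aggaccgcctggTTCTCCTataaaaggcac
Rpl9 (chr5:65391383-65391412, minus strand): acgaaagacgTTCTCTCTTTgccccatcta
Rpl37 (chr15:5116631-5116660, plus strand): ggcgggggtgCTTTCTCTTCCggtctcttt
Rpl11 (chr4:136053358-136053387, minus strand): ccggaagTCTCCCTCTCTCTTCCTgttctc
Rps18 (chr17:33955648-33955677, minus strand): gtcacttccgCTCTCTCTTCCacaggaggc
Rps4x (chrX:102189342-102189371, minus strand): cgcgcagcctccgaccctaaTTTCTTCgtt
The run was 7 bases long in Rplp0 and Rps4x, and 10 or more in the other 6. In Rps2 and Rpl10 it ended at the end of the table's window, so it may be longer. A run of this kind is a description of the sequence and not a mapped TOP motif.

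Total counts were 7.55 M to 17.4 M per library. The ribosomal RNA precursor Rn45s took 77.4% of the counts of the DMSO Ova library of mouse A, which left 1.77 M on other genes, 7.83% of the DMSO IC library of the same mouse, and 1.41% to 4.40% in the other 10. These 2 DMSO libraries of mouse A also stood apart in the members. The first principal component of the 81 members held 71.9% of their variance, and the 2 libraries scored -5.57 and -6.30 against -1.195 or more in the other 10. Results are therefore given with and without both.

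In these 2 libraries 31 members (38.3%) were above all of the other 10 libraries and 10 (12.3%) were below all of them, against 13.6% and 11.4% of all genes tested. The 31 included Rpl37, Rpl21, Rps28, Rpl17, Rpl11, Rpl23a, Rpl23 and Rpl24. Rpl37, a zinc-finger protein of the large subunit, had 549 CPM (TMM-normalized counts per 1000000 counts) in DMSO Ova and 377 in DMSO IC of mouse A, and 23.2 to 83.5 in the other 10. Rpl21, a large-subunit protein needed for the maturation of its rRNA, had 293 and 277 CPM against 29.6 to 80.6. Rpl17, at the rim of the peptide exit tunnel, had 409 and 668 CPM against 100.5 to 226, and Rps28, in the head of the small subunit, had 88.3 and 113 against 17.3 to 48.2. In each of these 4 genes the gap in CPM between the 2 libraries and the rest was larger than the whole range of the rest. On a log scale this held for Rpl37 and Rpl21 but not for Rpl17 and Rps28.

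The 10 below all of the others in both included Rps15, Rps10, Rps4x, Rps18, Rps7, Rpl37a, Rpl10 and Rpl9. Rps15, of the small-subunit head, had 64.7 and 117 CPM against 139 to 203, and Rps4x, of the small-subunit body, had 227 and 257 against 368 to 517. For the other 5 pairs of libraries of 1 mouse and 1 drug, 0 to 4 members were above all other libraries and 0 to 4 below, where 1.96% to 4.29% of all genes were above and 1.42% to 3.78% below. High and low members were found together in the same 2 libraries, but the low share (12.3%) was near that of all genes (11.4%).

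**Figure D1:**
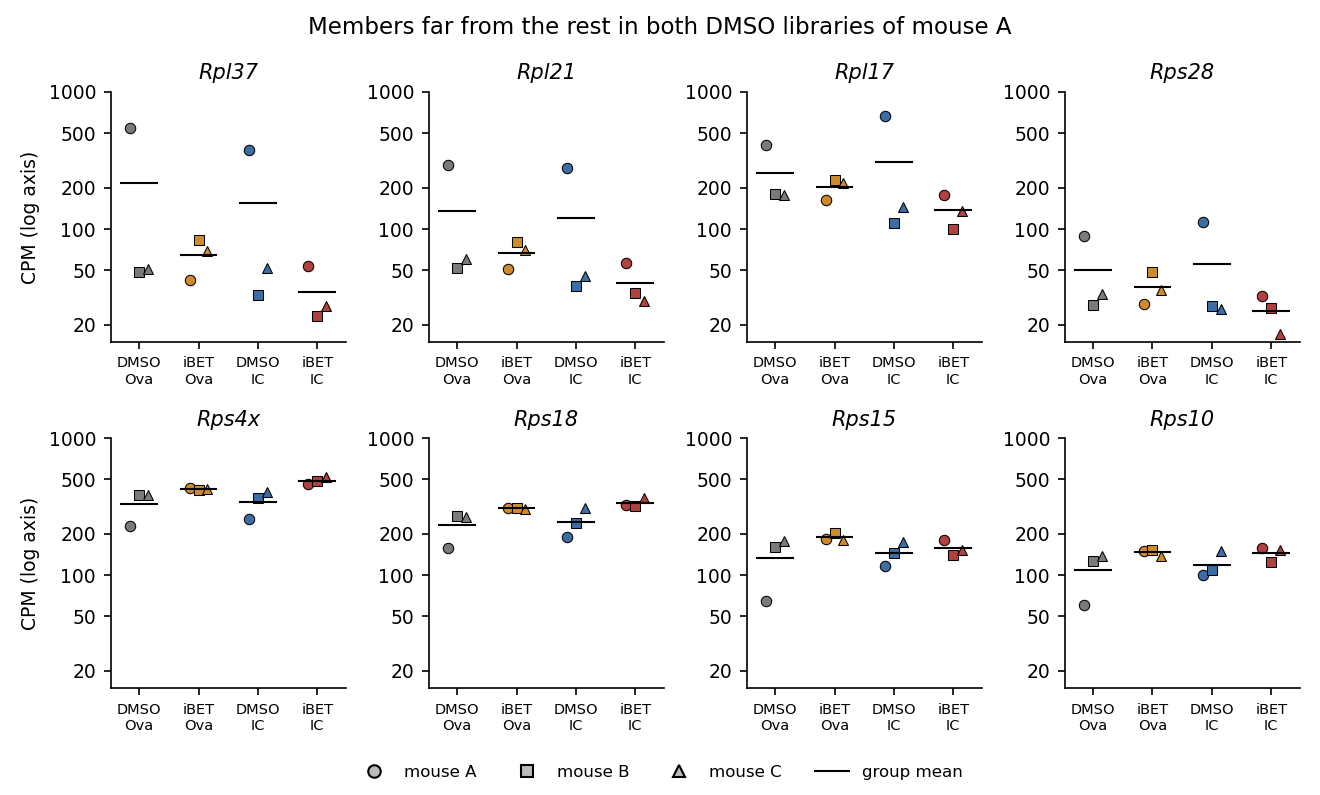
CPM (log axis) of 8 members in the 12 libraries, by group, with mice A, B and C as circles, squares and triangles and the group mean as a line. In the upper row (Rpl37, Rpl21, Rpl17, Rps28) the circles of both DMSO groups lie above the other 10 libraries, and in the lower row (Rps4x, Rps18, Rps15, Rps10) they lie below.

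Among genes other than members the deviation of these 2 libraries from the mean of the other 10 also differed with transcript length. Its median was 0.14 on the log2 scale for the 360 genes under 500 bases and -0.07 for the 3113 over 4000 bases. Members under 500 bases (19) had a median of 0.63. At 500 to 700 bases the median was 0.16 for members (21) and 0.21 for other genes (256). At 700 to 1000 bases it was 0.17 for members (23) and 0.12 for other genes (523). At 1000 to 2000 bases it was 0.11 for members (16) and 0.00 for other genes (2545). The DMSO IC library had 10.5 M counts outside Rn45s, within the range of the other 10, and the DMSO Ova library had 1.77 M. A relation of depth to the deviation was not tested. With a trend on length and GC content removed, the medians of the members were 0.14 under Ova and 0.08 under IC, and with the Rn45s row removed 0.06 and -0.07, against 0.09 and -0.07 in the fit used for the tests.

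The members together took 2.22% to 3.08% of the counts outside Rn45s. The share was 2.72%, 2.55% and 2.66% in DMSO Ova (mice A, B and C) and 2.53%, 2.90% and 2.91% in iBET Ova. It was 3.08%, 2.22% and 2.58% in DMSO IC and 2.68%, 2.22% and 2.54% in iBET IC. The 4 groups overlapped, with means of 2.65% ± 0.09, 2.78% ± 0.22, 2.63% ± 0.43 and 2.48% ± 0.23 (SD, n = 3 each). In bulk RNA a lower share could mean fewer cells of a type or less RNA per cell, and these cannot be told apart.

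**Figure D2:**
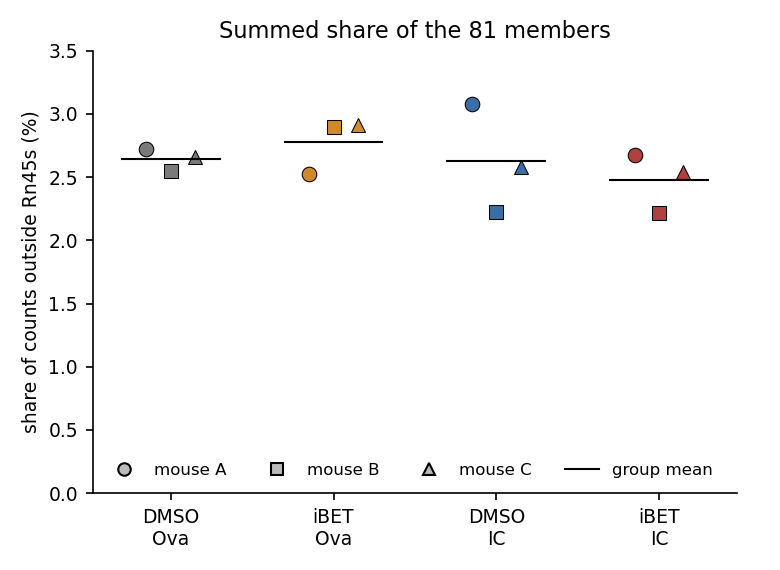
Share of each library's counts outside Rn45s (percent, axis from 0) taken by the 81 members, by group, with mice as symbols and the group mean as a line. The groups overlap between 2.22% and 3.08%.

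Per length, levels ran from 2.52 to 1967. The level is the mean CPM of the 12 libraries per kb of the shortest full principal transcript, and its median was 279 over the 81 members, 285 in the large subunit and 243 in the small. The 3 highest were Rpl26, at the exit tunnel rim, with 1967 CPM per kb (1157 to 3036 over libraries), Rplp1, an acidic protein of the stalk, with 1573 (1070 to 2015), and Rpl13a, which also acts in interferon-induced translational silencing, with 1126 (861 to 1358). Their ranges overlapped. The 3 lowest were Rps4l, a transcribed processed pseudogene by the annotation, with 2.52 (1.30 to 4.71), the Rpl22 paralogue Rpl22l1 with 11.2 (5.98 to 15.5), and Rps20 with 35.6 (24.2 to 45.0). These 3 ranges did not overlap each other. The annotated transcript of Rps20 is 3706 bases long, which lowers its value.

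**Figure D3:**
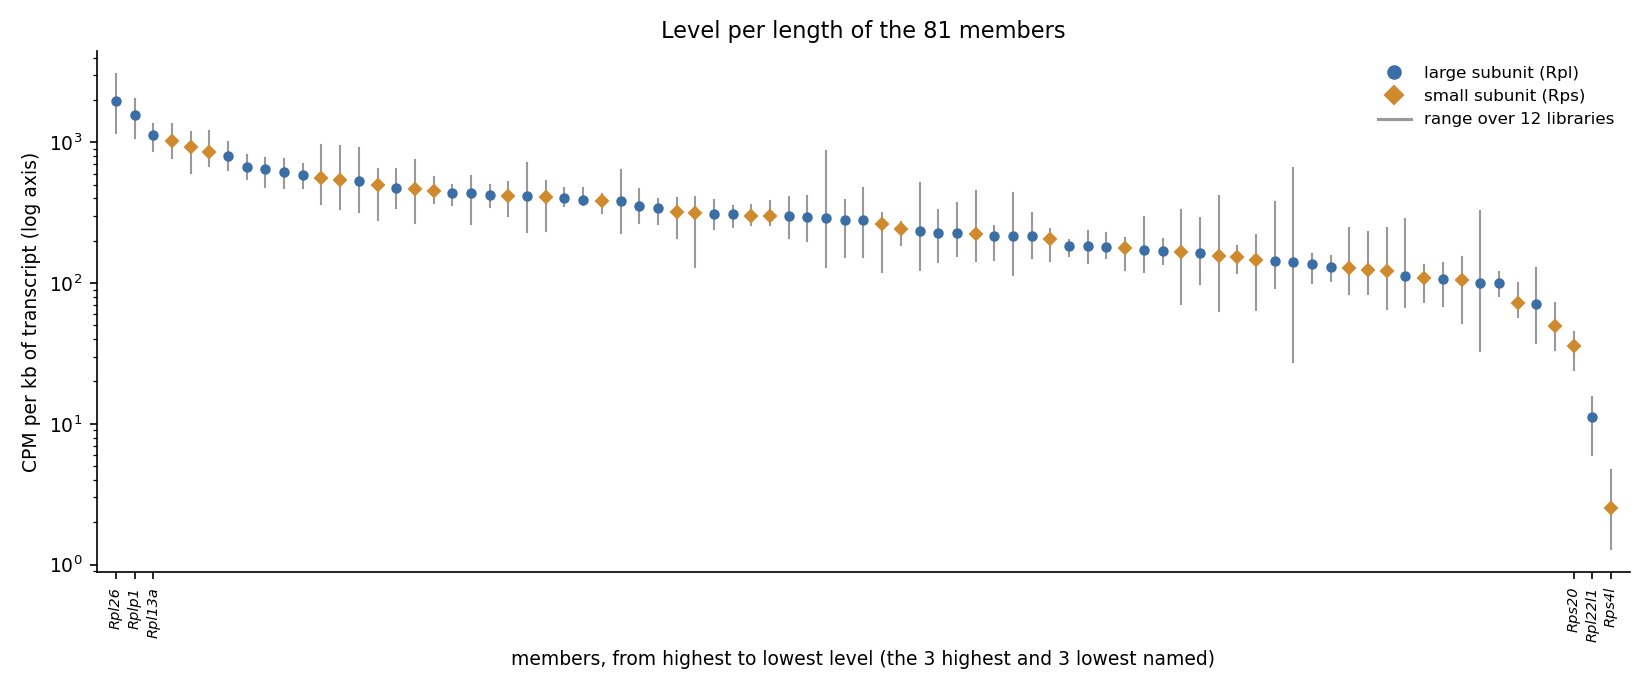
Level of each member in CPM per kb of transcript (log axis), ordered from highest to lowest with the 3 highest and the 3 lowest named, as the mean (circles, large subunit; diamonds, small subunit) and the range over 12 libraries (lines). Most members lie within 10-fold of each other, and Rpl22l1 and Rps4l lie below the rest.

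With Ova as stimulus, iBET raised 7 members and lowered 0 (edgeR quasi-likelihood test, adjusted p under 0.05 over 11468 genes), which compares with 17.1% of all genes called higher and 14.2% called lower, 31.3% together. The 7, 5 of the large subunit and 2 of the small, included Rps2, Rps20, Rplp1, Rpl9, Rpl10 and Rplp0. When DMSO Ova of mouse A alone was left out, 1 member was called higher, Rps2, which was called in 12 of 12 fits that left out 1 library. Rpl10 and Rplp0 were called in 10 of these fits, Rps20 in 9, Rplp1 in 7 and Rpl9 in 5. Shares of all genes called in these fits are not given here. Among the 81 members, 14 had an unadjusted p under 0.05 (41.6% of all genes). The median log2 fold change was 0.09 for members and 0.02 for all genes. Groups did not overlap in 19 members that were higher with iBET (25.2% of all genes) and in 0 that were lower (19.9% of all genes). Paired by mouse, 29 members were higher with iBET in 3 of 3 mice (31.8% of all genes) and 0 were lower in 3 of 3 (27.0%). With DESeq2 in place of edgeR, 5 members were called higher and 0 lower (14.0% and 14.5% of all genes).

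Rps2 (chr17:24718116-24721929), a small-subunit protein at the entry of the mRNA channel, had 367, 470 and 473 CPM in DMSO Ova and 574, 715 and 956 in iBET Ova. All 3 iBET libraries were above the DMSO libraries, and the log2 fold change was 0.78 (SE 0.17, adjusted p = 0.0042). In IC it had 440, 390 and 458 CPM with DMSO and 605, 583 and 695 with iBET, again without overlap (log2 fold change 0.55, SE 0.17, adjusted p = 0.0238). Its exons overlap Snhg9 on the other strand and hold Snora64, and with the use of strand in counting not given in the sources used here, reads of these genes cannot be told apart. Without both DMSO libraries of mouse A the call remained under Ova (0.63, adjusted p = 0.0201) and under IC (0.54, adjusted p = 0.0393).

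Rpl10 (chrX:74270812-74273135), which helps to form the site where tRNAs meet the large subunit, was the other member called under both stimuli. In DMSO Ova it had 420, 477 and 470 CPM and in iBET Ova 604, 571 and 607. The groups did not overlap (log2 fold change 0.38, SE 0.11, adjusted p = 0.0173). Under IC it had 384, 424 and 477 CPM with DMSO and 604, 522 and 621 with iBET, also apart (0.44, SE 0.11, adjusted p = 0.00678). Without both DMSO libraries of mouse A the changes were 0.29 (adjusted p = 0.0358) and 0.35 (adjusted p = 0.0155). The exons of Rpl10 overlap Snora70 on the same strand.

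The stalk recruits the elongation factors to the large subunit, and 2 of its 3 genes were called under Ova. Rplp0, its base, had 751, 854 and 791 CPM in DMSO Ova and 1018, 1101 and 952 in iBET Ova. Rplp1 had 575, 696 and 692 against 829, 1006 and 950. Both rose without overlap, by 0.36 (SE 0.10, adjusted p = 0.0136) and 0.50 (SE 0.17, adjusted p = 0.0379) on the log2 scale. Rplp2, the partner of Rplp1, had 394, 296 and 283 against 293, 341 and 377, where the groups overlapped and the DMSO library of mouse A was the highest (0.06, SE 0.17, adjusted p = 0.826). A difference between the 3 genes was not tested.

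Under IC the stalk genes were not called, with log2 fold changes of 0.23 for Rplp0 (SE 0.10, adjusted p = 0.0769), 0.27 for Rplp1 (SE 0.17, adjusted p = 0.228) and 0.11 for Rplp2 (SE 0.17, adjusted p = 0.643). Without both DMSO libraries of mouse A, Rplp0 remained called under Ova (0.28, adjusted p = 0.0388), Rplp1 did not (0.39, adjusted p = 0.114), and Rplp2 was called under IC (0.31, adjusted p = 0.0462). The call for Rplp2 thus rested on which libraries entered.

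Rps20 and Rpl9 were also called under Ova. Rps20, of the small-subunit head, had 89.9, 110 and 124 CPM with DMSO and 150 to 167 with iBET (log2 fold change 0.54, SE 0.16, adjusted p = 0.0203). Rpl9, near the base of the stalk, had 182 to 247 with DMSO and 249 to 318 with iBET (0.43, SE 0.15, adjusted p = 0.0402). In both the groups were apart under Ova. Under IC the changes were 0.38 and 0.18, with adjusted p values of 0.0817 and 0.347, and neither was called. Without both DMSO libraries of mouse A, Rps20 was called under Ova (0.40, adjusted p = 0.032) and under IC (0.47, adjusted p = 0.0154), whereas Rpl9 was not called under Ova (0.29, adjusted p = 0.111). DESeq2 did not call Rpl9 under Ova (adjusted p = 0.0564).

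**Figure D4:**
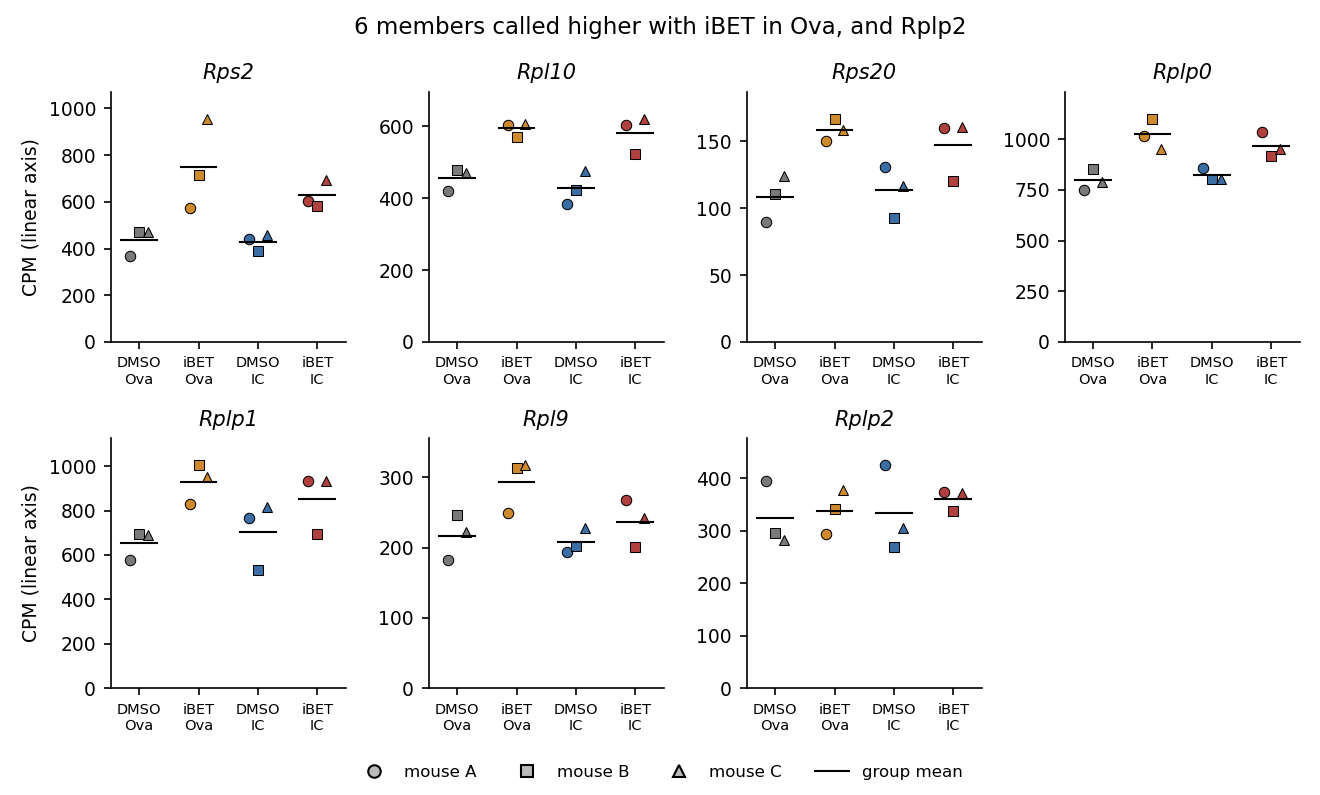
CPM (linear axis from 0) in the 12 libraries for 6 of the 7 members called higher with iBET in Ova and for Rplp2, by group, with mice as symbols and the group mean as a line. The 6 genes show iBET Ova libraries above all DMSO Ova libraries, and Rplp2 shows overlap.

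With IC as stimulus, iBET raised 2 members, Rps2 and Rpl10, and lowered 0, where 19.0% of all genes were called higher and 15.8% lower (34.8% together). The number called higher ran from 1, without DMSO IC of mouse B or iBET IC of mouse C, to 8, without DMSO IC of mouse C. Shares of all genes called in those fits are not given here. An unadjusted p under 0.05 was found for 12 members (44.4% of all genes). The median log2 fold change was -0.07 for members and 0.00 for all genes, and 34 of 81 were above 0. DESeq2 called 2 members higher and 2, Rpl11 and Rpl24, lower (15.7% and 15.9% of all genes). Groups did not overlap in 7 members that were higher (26.3% of all genes) and 0 that were lower (22.3%). In 3 of 3 mice, 22 members were higher (35.0% of all genes) and 24 lower (33.0%).

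The most negative changes were in the members that the DMSO libraries of mouse A held at high levels. Rpl37 had a log2 fold change of -2.14 under IC (SE 1.09, adjusted p = 0.157) and -1.68 under Ova (SE 1.09, adjusted p = 0.273), and was not called. By mouse, its change under Ova was -3.69 in A, 0.79 in B and 0.44 in C. Without both DMSO libraries of mouse A its changes were -0.30 under IC and 0.35 under Ova (adjusted p = 0.65 and 0.585). The medians of the 81 members without these libraries were 0.15 under Ova and 0.10 under IC, and the lowest member was then Rps27a under Ova (-0.37, adjusted p = 0.603) and Rps4l under IC (-0.33, adjusted p = 0.587).

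In that fit, of 11616 genes, 7 members were called higher under Ova and 5 under IC, with 0 called lower in either, where 19.0% and 19.2% of all genes were called higher and 17.7% and 17.6% lower. Under Ova 4 of the 7 (Rps2, Rps20, Rpl10 and Rplp0) were also called with all 12 libraries, and Rps9, Rpl8 and Rpl36a were added. Under IC the 5 were Rps2, Rps20, Rpl10, Rps4x and Rplp2. With mouse as a block and all 12 libraries, 11 members were called higher under Ova (20.4% of all genes) and 8 under IC (22.4%), again with 0 lower (17.9% and 19.8% of all genes). Rps18, Rpl37a, Rps2 and Rpl10 were among those called under both stimuli, and the 7 members called under Ova without the block were among the 11. Rps4x was called under IC with the block (0.53, adjusted p = 0.012).

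Over the 6 pairs of iBET and DMSO libraries of 1 mouse and 1 stimulus, 17 members were higher with iBET in 6 of 6 (25.6% of all genes) and 0 were lower in 6 of 6 (21.9% of all genes). The 17 included Rps4x, Rps10, Rps16, Rps18, Rpl7, Rpl7a, Rpl28, Rpl35a, Rpl37a and Rpl41 besides 6 of the 7 called under Ova. Rps4x had 227, 385 and 385 CPM in DMSO Ova against 433, 417 and 427, and 257, 368 and 407 in DMSO IC against 465, 488 and 517. It was apart under both stimuli but not called (0.35, adjusted p = 0.197, and 0.51, adjusted p = 0.061), although it was called under IC without both DMSO libraries of mouse A (adjusted p = 0.0142).

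**Figure D5:**
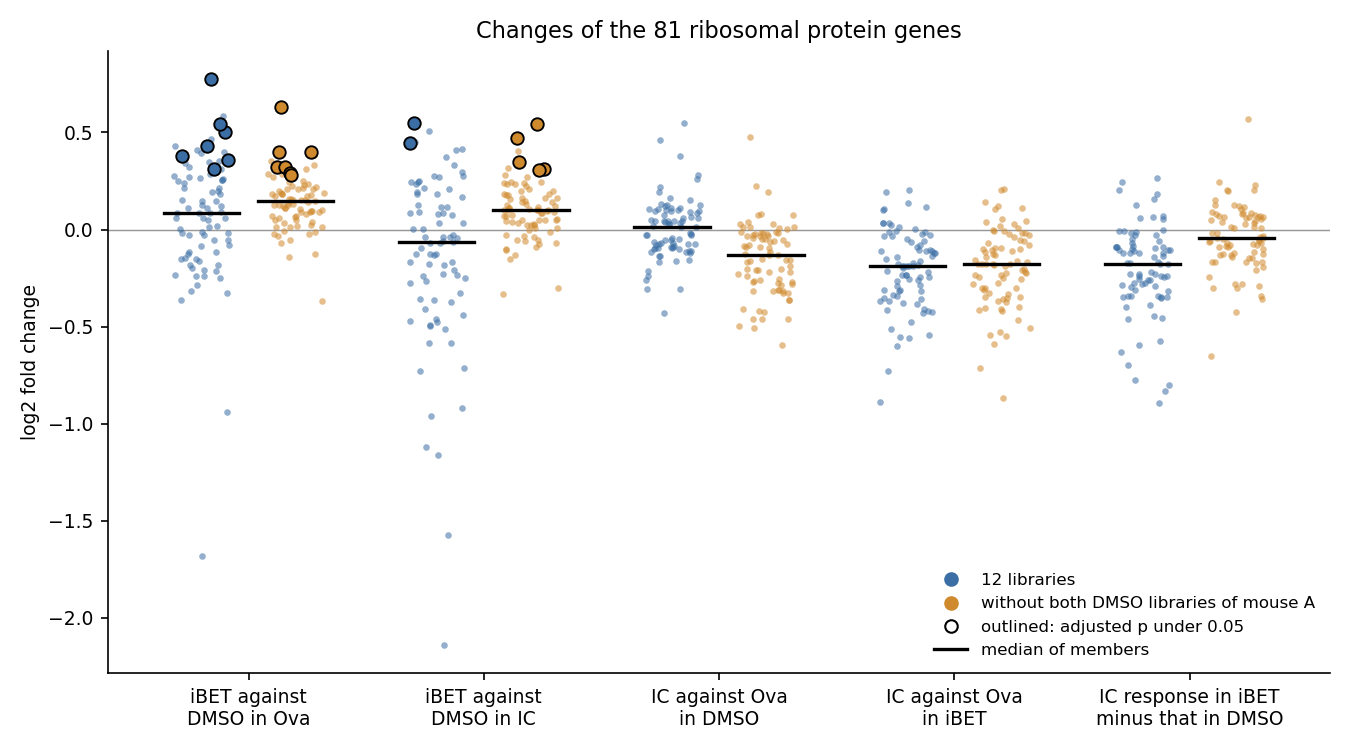
Log2 fold change of each of the 81 members in the 5 comparisons, fitted on 12 libraries (blue) and without both DMSO libraries of mouse A (orange), with outlined points for an adjusted p under 0.05 and lines for medians. The blue tail down to -2.14 in the iBET comparisons is absent from the orange points, and the calls are all above 0.

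By role, the exit tunnel and its rim held no called member, where 31.3% of all genes were called under Ova and 34.8% under IC. These 9 proteins line the tunnel of the new polypeptide or lie at its rim. Of them 0 were called in either iBET comparison, 0 had an unadjusted p under 0.05 by edgeR, and 0 were called by DESeq2. Their medians were -0.01 under Ova and -0.27 under IC. These became 0.13 and 0.02 without both DMSO libraries of mouse A. In the small-subunit head, 1 of 14 was called under Ova (Rps20) and 0 under IC, with medians of 0.20 and 0.02. In the body and platform, 1 of 17 was called under each (Rps2), with medians of 0.09 and -0.07. When both DMSO libraries of mouse A were left out, 1 member of the head was called under each stimulus (Rps20), with medians of 0.13 and 0.13. In the body and platform 2 were then called under each (Rps2 with Rps9 under Ova and with Rps4x under IC), with medians of 0.10 and 0.11.

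The genes of RPL5 and RPL11, which bind 5S rRNA and MDM2, were not called by edgeR with 12 libraries. DESeq2 called Rpl11 lower under IC, and edgeR without the 4 libraries of mouse A called it higher under Ova (0.30). Rpl5 had 837, 728 and 729 CPM in DMSO Ova and 735, 816 and 838 in iBET Ova, with overlap (0.06, SE 0.11, adjusted p = 0.728), and its change under IC was -0.06 (SE 0.11, adjusted p = 0.708). Rpl11 had 183, 93.6 and 93.5 against 84.7, 109 and 126 under Ova, and 314, 88.8 and 95.7 against 103, 76.5 and 76.6 under IC. Its changes were -0.19 (SE 0.45) and -0.96 (SE 0.45), adjusted p = 0.792 and 0.122, and were 0.15 and -0.13 without both DMSO libraries of mouse A. The DMSO library of mouse A was the highest under each stimulus.

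Several members with a known second role did not pass the test. Rpsa, which is also a laminin receptor, had 1938, 1090 and 1215 CPM in DMSO Ova and 1189, 1375 and 1449 in iBET Ova (-0.08, SE 0.19, adjusted p = 0.785). Rps3, a DNA-repair enzyme and partner of NF-kB p65, had 110 to 191 against 123 to 131 (-0.16, adjusted p = 0.49), and Rps6, the substrate of the S6 kinases, had 827 to 1073 against 847 to 1121 (0.11, adjusted p = 0.706). The groups overlapped in each. Rps19, mutated in Diamond-Blackfan anaemia, had 90.4 to 101 against 93.3 to 112 (0.15, adjusted p = 0.489), and Rpl13a had 902 to 1192 against 1177 to 1422 (0.31, adjusted p = 0.14). These groups overlapped too. Under IC none of these 5 was called, with log2 fold changes from -0.13 to 0.19. Leaving out both DMSO libraries of mouse A turned the signs under Ova for Rpsa (0.18, adjusted p = 0.229) and Rps3 (0.05, adjusted p = 0.771), and that under IC for Rps6 (0.12, adjusted p = 0.517) and Rps19 (0.07, adjusted p = 0.691).

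Rps27a, made as a fusion with ubiquitin, split the libraries in another way. It had 296, 273 and 533 CPM in DMSO Ova, 472, 243 and 242 in iBET Ova, 598, 213 and 322 in DMSO IC, and 457, 228 and 251 in iBET IC. The 3 libraries of mouse A other than DMSO Ova and the DMSO Ova library of mouse C were high, and the remaining 8 were low without overlap. Within-group SD of log2 CPM was 0.60 with all libraries and 0.55 without both DMSO libraries of mouse A, against medians of 0.275 and 0.204 for members and 0.23 and 0.166 for all genes.

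The paralogues were expressed below their partners per length and were not called in any comparison. Rps27l, a target of p53, had 49.3 CPM per kb against 225 for Rps27, and Rpl22l1 had 11.2 against 412.7 for Rpl22, an RNA-binding protein that represses it in other cells. Rpl7l1, thought to act in ribosome assembly, had 182 CPM per kb against 439 for Rpl7, and Rps4l 2.52 against 408 for Rps4x. Rpl3 and Rpl39 had 300 and 100 CPM per kb, whereas Rpl3l and Rpl39l fell below the count minimum, as did the Rpl10 paralogue Rpl10l. In iBET against DMSO the 4 paralogues had log2 fold changes of -0.20 (Rps27l), 0.00 (Rpl22l1), 0.26 (Rpl7l1) and 0.22 (Rps4l) under Ova, and of -0.21, 0.21, -0.04 and -0.13 under IC, with adjusted p of at least 0.223. Rps4l had 2 counts in its lowest library, so its values are imprecise. The partners Rps27 and Rpl22 had changes of -0.15 and -0.36 under Ova and -0.41 and -0.46 under IC, and were above all other libraries in the 2 DMSO libraries of mouse A. Without these libraries the values were 0.21 and -0.05 under Ova and 0.28 and 0.01 under IC, and neither was called.

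IC against Ova left 0 members called, both in DMSO, where 1.22% of all genes were called, and in iBET, where 0.349% were. In both, 0 members had an unadjusted p under 0.05 by edgeR (11.7% and 7.50% of all genes). With both DMSO libraries of mouse A left out these were 0 members in DMSO and 11 in iBET (14.4% of all genes in iBET). DESeq2 (2.29% and 1.04% of all genes called) and limma on the normalized signal also called 0 members. The share of all genes is not given here for limma, nor for DMSO in the fit with libraries left out. Medians of the members were 0.01 in DMSO and -0.19 in iBET, against -0.01 and -0.01 over all genes. They were -0.13 and -0.18 without both DMSO libraries of mouse A. The omission of 1 library moved them from -0.18 (without DMSO IC of mouse A) to 0.12 (without DMSO IC of mouse B) in DMSO, and from -0.29 (without iBET IC of mouse A) to -0.07 (without iBET IC of mouse B) in iBET. The omission of 1 mouse moved them from -0.13 (without mouse A) to 0.11 (without mouse B) in DMSO. In iBET they moved from -0.33 (without mouse A) to -0.05 (without mouse B). In iBET 12 of 81 members were above 0, and in DMSO 41 were. The signs of the members are not independent of each other. In DMSO, groups did not overlap in 0 members in either direction (7.80% of all genes higher, 7.47% lower). In iBET, 3 were higher without overlap (Rps3, Rps4x and Rps18, against 9.53% of all genes) and 6 lower (among them Rps25, Rps26, Rpl27, Rpl29 and Rpl36a, against 9.34%).

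The members lower with IC in iBET differed by mouse. Rpl37 had 42.2, 83.5 and 69.2 CPM in iBET Ova and 53.9, 23.2 and 27.2 in iBET IC (mice A, B and C), and Rpl36, a large-subunit protein, had 69.7, 118 and 127 against 90.1, 54.1 and 62.1. Both were higher with IC in mouse A and lower in mice B and C. In a fit without the 4 libraries of mouse A, 16 members were called lower and 0 higher, where 1.46% of all 11482 genes tested were called lower and 1.19% higher (2.66% together). The largest falls in that fit were in Rpl37 (-1.57, SE 0.20, adjusted p = 0.00829), Rpl21 (-1.21, SE 0.13, adjusted p = 0.00152) and Rpl36 (-1.05, SE 0.11, adjusted p = 0.00148). These 16 also held Rpl17, Rps28, Rpl23a, Rpl23, Rpl24 and Rpl11, which were high in the DMSO libraries of mouse A. That fit has 2 mice per group. Over the fits without 1 mouse the number of members called ran from 0 to 16, and it was 0 in each fit without 1 library.

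The difference of the IC responses, iBET less DMSO, was called for 0 members and 0 of all genes (0% of 11468), with 0 members at an unadjusted p under 0.05 by edgeR, against 2.55% of all genes, and 0 called by DESeq2 (0.0239% of all genes). The median was -0.18 for members and 0.00 for all genes, and it was -0.05 without both DMSO libraries of mouse A. The lowest values were in Rpl24 (-0.89, SE 0.59), Rpl17 (-0.83, SE 0.84) and Rps28 (-0.80, SE 0.83), the highest in Rpsa (0.26, SE 0.26). These 4 were picked from their values.

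Genes outside the rule that belong to the same machinery were examined from lists drawn up with results of these data known. Fau, which encodes a ribosomal protein fused to a ubiquitin-like protein, was not called by edgeR, nor was Rpl36al, which DESeq2 called lower under IC (edgeR -0.85, adjusted p = 0.0785). Gnb2l1 (RACK1, a scaffold on the small subunit) was called under IC (0.32, SE 0.11, adjusted p = 0.044) and had 0.18 under Ova (SE 0.11, adjusted p = 0.245). The call under IC was lost without both DMSO libraries of mouse A and with DESeq2. Of 7 pseudogene rows, Rplp2-ps1 was called under IC (0.53, SE 0.13, adjusted p = 0.00769) and the other 6 were not called by edgeR with 12 libraries. How reads that fit several copies were counted is not given in the sources used here. Reads of a member and its copies may have been split or counted in both rows. Rpl34-ps1 had nearly the CPM of Rpl34 in every library, such as 303 and 304 in DMSO Ova of mouse A. In iBET IC of mouse C they had 151 and 152. If the same reads entered both rows, adding pseudogene counts to the parent counts them again. This was not tested.

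Among 20 other mRNAs with a TOP motif, 6 were called higher and 1 lower with iBET under Ova, and 4 higher and 1 lower under IC. Over all genes the shares were 17.1% and 14.2% under Ova and 19.0% and 15.8% under IC. The elongation factors Eef2 (0.61, SE 0.11, adjusted p = 0.00121) and Eef1a1 (0.41, SE 0.10, adjusted p = 0.00882) and the poly(A)-binding protein Pabpc1 (0.49, SE 0.08, adjusted p = 0.000689) rose under Ova. All 3 were also called under IC, with changes of 0.54, 0.44 and 0.41. Eef1d, Eif3h and Npm1 were called higher under Ova and Eif2s3x under IC, but the difference of the iBET responses between stimuli was not called for any of these 4 (unadjusted p from 0.21 to 0.544, adjusted p = 0.99985). In the fit without both DMSO libraries of mouse A, Eef1d was called under IC as well and Eif2s3x was not. Hnrnpa1, a splicing factor, fell by 0.88 under Ova and by 1.20 under IC (adjusted p = 0.0214 and 0.00364).

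Of 15 genes of the mTORC1 pathway or linked to TOP mRNAs, 2 were called higher and 2 lower under Ova (17.1% and 14.2% of all genes). Under IC 5 were called higher and 2 lower (19.0% and 15.8% of all genes). Rptor, the mTORC1 scaffold, fell by 0.73 and 0.57 (adjusted p = 0.000743 and 0.00316), and Akt1s1, which encodes the inhibitor PRAS40, fell by 0.78 and 0.98 (adjusted p = 0.0026 and 0.00038). The translation repressor Eif4ebp2 rose by 0.90 and 0.79 (adjusted p = 0.00444 and 0.00734), and Tsc1, an upstream inhibitor of mTORC1, by 0.65 and 0.52 (adjusted p = 0.000474 and 0.00151). Under IC, Tsc2, Deptor and Mlst8 were also called higher, of which Tsc2 was not called without both DMSO libraries of mouse A. These are RNA levels and say nothing of the translation of the members.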

How the data were processed

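Gene counts from 12 BMDM libraries were used, 3 mice in each of 4 groups. By the labels, RNA was extracted with an RNeasy kit and made into libraries with the SMARTer Universal Pico Input kit. The authors aligned trimmed reads to mm10 with HISAT2 and made the deposited counts per gene with featureCounts. The annotation, strand use and treatment of multiply aligned reads are not given in the sources used here. The deposited normalized signal was checked and equalled counts divided by DESeq2 size factors (largest relative gap 4.89e-15). It was used in 1 alternative. Library depth is given with the results. Intervals are not given for shares, since counting error is only part of their error.

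Analysis used edgeR 4.0.16 in R 4.3.3, with filterByExpr (minimum count 10), TMM factors and 1 robust quasi-likelihood model with 1 term per group, for 5 contrasts. Two-sided p-values were adjusted over the whole tested table by Benjamini-Hochberg. Calls needed an adjusted p below 0.05. The SE is the absolute log2 fold change over the square root of F. Changes by mouse are differences of log2 CPM (prior count 2). Of 24421 symbols, 24045 were matched to GENCODE vM21 on GRCm38 for positions and lengths. The model was also run on simulated counts, drawn independently with no mouse effect and no libraries that stood apart in the members. That run cannot show how the model handles these features.

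Named genes were the called members with the largest changes (mean count at least 50, same direction in 3 of 3 mice), at most 5 in each direction in the iBET contrasts and 3 in the others, the stalk, Rpl5, Rpl11, Rpsa, Rps3, Rps6, Rps19, Rpl13a and Rps27a, paralogue pairs, and the 3 highest and lowest per length. Other members were named after their values were seen, and a few genes that the rule or a list includes are not reported here by name. The members and lists were chosen with earlier results of these data known. Alternatives were DESeq2 1.42.0 with and without mouse as a block, its size factors in edgeR, no scaling, scaling without the members and Rn45s, other filters, mouse as a block, 1 surrogate variable (sva 3.50.0), compared groups alone, limma 3.58.1 on the signal (pseudocount 1), a threshold of 0.01, a loess trend (span 0.5) on length and GC content, pseudogene counts added to the parent, and omission of each library and mouse. The omission of both DMSO libraries of mouse A and the removal of Rn45s were chosen after seeing the data.

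Libraries with the same letter came from the same mouse by the labels. Across all genes, deviations from the group mean correlated at -0.0725 to 0.542 between the 18 pairs of libraries of 1 mouse, with 12 over 0.1. Mouse was therefore used as a block in an alternative. Across the members alone, the same correlations ran from -0.581 to 0.853, with 10 over 0.1. DMSO Ova and iBET Ova of 1 mouse correlated at -0.406 (A), -0.581 (B) and -0.117 (C). DMSO Ova and DMSO IC of 1 mouse correlated at 0.853, 0.733 and 0.756. The pairing by mouse was thus uneven in the members.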

Additional observations from a re-analysis of the deposited data

Results flagged for a closer look

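For Rpl27a, a large-subunit protein, the iBET response had opposite signs under the 2 stimuli in every mouse. It was higher with iBET in 3 of 3 mice under Ova (log2 fold change 0.11) and lower in 3 of 3 under IC (-0.18). In mouse C under Ova it had 152.6 CPM with DMSO and a nearly equal 153.4 with iBET. Its highest library was DMSO IC of mouse A (180 CPM). The gene was picked from the members for this pattern, and the share of all genes with it was not counted. The difference of the responses was -0.292 (SE 0.19, unadjusted p = 0.148 by edgeR). The difference did not pass the test, and 0 members were called for it. Groups of 3 libraries were not tested for outlying samples.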

How the results depend on the processing

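With 12 libraries and 1 term per group, iBET gave 7 members called higher under Ova and 2 under IC, and 0 called lower. Mouse is the paired unit of the design, and with mouse as a replicate block the higher calls were 11 and 8 in edgeR and 7 and 6 in DESeq2, which called 1 lower under IC. DESeq2 without the block called 5 and 2 higher, and 2 lower under IC. Library totals without TMM factors gave 0 and 0 higher and 1 lower under IC, and moved the median of all genes to 0.34 and of the members to 0.46 under Ova. One surrogate variable gave 14 and 7, the compared groups fitted alone 3 and 2, a threshold of 0.01 1 and 1, the length and GC trend removed 8 and 10, and the same with the block 14 and 18. Without both DMSO libraries of mouse A the counts were 7 and 5, and with the block as well 10 and 11, with 1 lower under Ova (Rps27a) and 1 called in IC against Ova in iBET (Rpl36a). Other filters, scaling without the members, DESeq2 size factors, limma, the removal of Rn45s and added pseudogene counts gave 5 to 7 under Ova and 2 under IC. The share of all genes called also differs between fits, and it is not given here for every fit above or below. Where it is missing, a change in the count cannot be read as particular to the members.

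Without 1 library the higher calls ran from 1 to 7 under Ova and from 1 to 8 under IC, and the lower calls under IC from 0 to 3. Under Ova, 1 was called without DMSO Ova of mouse A, 2 without iBET Ova of mouse B, and 4 without DMSO Ova or iBET Ova of mouse C. Under IC, 6 were called without DMSO Ova of mouse A, 8 without DMSO IC of mouse C, 4 without iBET IC of mouse B, 3 without iBET Ova of mouse C, and 1 without DMSO IC of mouse B or iBET IC of mouse C. The 3 lower calls came without DMSO IC of mouse B. Without mouse A the higher calls were 15 and 3, with 3 lower under IC and 16 in IC against Ova in iBET. Without mouse B they were 0 and 0, and without mouse C 1 and 1. Fits without a mouse have 2 libraries per group. Under IC, Rpl10 was called in 12 of 12 fits without 1 library and Rps2 in 9, with a highest adjusted p of 0.0863 without iBET IC of mouse C. The sign turned with a call for Rpl11 under Ova (0.30, without mouse A) and for Rpsa under Ova (0.23, adjusted p = 0.0466, without both DMSO libraries of mouse A and with the block). The cause of these changes was not tested. The median of the members ranged without 1 library from 0.03 to 0.15 under Ova and from -0.20 to 0.10 under IC, so its sign under IC depends on the libraries. Depth limited DMSO Ova of mouse A most, with 1.77 M counts outside Rn45s.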
